A study of Mus musculus with 12 samples.

Results

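Imprinted genes are expressed from the copy inherited from 1 parent, and 10 such genes of the early embryo were followed through blastocyst maturation with and without an inhibitor of p38-MAPK. The genes were H19, Igf2, Igf2r, Peg3, Peg10, Mest, Grb10, Impact, Cdkn1c and Sgce, chosen by name, and all 10 were found among the 34245 genes of the expression table. Mouse embryos from F1 hybrid parents (C57Bl6 x CBA/W) were grown in KSOM medium with amino acids from the 2-cell stage. At E3.5, pools of 30 blastocysts were moved into solvent (DMSO, the control) or into 20 µM SB220025, which inhibits p38-MAPK (the group labelled p38i, here p38-MAPKi), for 4, 7 or 10 h. Each of the 6 groups had 2 biological replicates, so that 12 poly(A) mRNA libraries were available. No genotype other than that of the hybrid cross was used, and every library was made from whole embryos.

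The choice of parental copy is set by DNA methylation laid down in the egg or the sperm, which has to outlast the general loss of methylation after fertilisation. The protein ZFP57 binds the methylated copy, and its partner TRIM28 recruits the enzymes that keep the mark. In the mouse, Igf2, Peg3, Peg10, Mest, Impact and Sgce are known as paternally expressed and H19, Igf2r, Cdkn1c and, outside the brain, Grb10 as maternally expressed. Many of them act on growth of the embryo and the placenta. The table holds 1 value for each gene and library, in which the reads of both parental copies are summed, so imprinting itself was not measured. These labels are general ones for the mouse, and whether each held in the blastocyst, Igf2r included, was not tested.

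Values are given in RPKM, reads scaled to transcript length and library depth, which allows levels of different genes to be compared. Recovered depths lay between 11242313 and 24457311 reads. Replicate 1 of p38-MAPKi at 7 h had the lowest depth, against 17097676 reads in the next library, and across genes its log2 values correlated with those of its replicate at r = 0.924, against 0.969 to 0.981 in the other 5 groups. Trophectoderm and epiblast markers were at 1 RPKM or more in all 12 libraries for 9 of 10 genes each, and primitive endoderm markers for 7 of 10, with Foxa2 at 0.0338 RPKM or less and Sox7 at 0.436 RPKM or less. No marker of cumulus or granulosa cells (8 genes, highest sum 1.51 RPKM) or blood (6 genes, highest sum 1.19 RPKM) reached that level in all libraries. In whole embryos, fewer cells of a type and less RNA per cell cannot be told apart.

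Igf2r was the most abundant of the 10 genes and Sgce the least. Igf2r, the receptor that takes up IGF2 and delivers it for breakdown, had a mean level of 33.1 RPKM over the 12 libraries (22.4 to 43.8 RPKM), above 84.3% of the genes tested in any comparison, and lay above Impact (13.03 RPKM, 7.02 to 19.5) in 12 of 12. Peg10 (8.78 RPKM, 2.89 to 20.3), Mest (8.50 RPKM, 4.82 to 12.3), Cdkn1c (6.03 RPKM, 3.44 to 10.6) and Igf2 (4.87 RPKM, 2.21 to 9.90) followed. H19 (3.05 RPKM, 0.604 to 11.1), Grb10 (1.47 RPKM, 0.814 to 2.08) and Peg3 (1.11 RPKM, 0.274 to 1.58) were lower still, with Peg3 above 8.90% of the genes tested. Igf2r and Impact were the one neighbouring pair in this order whose ranges did not overlap. Peg10 exceeded Mest in 4 of 12 libraries although its mean was higher. Sgce had a mean level of 0.221 RPKM, from 3 to 142 reads in a library, and lay below Peg3 in all 12 libraries, though the ranges of the pair over different libraries overlapped. For Impact, Peg10, Igf2, H19, Grb10, Peg3 and Sgce the lowest of the 12 values was that of a p38-MAPKi library at 7 h. For Igf2, Peg3 and Sgce it was replicate 1, the library of lowest depth. The share of all genes with their lowest value there was not counted, so this is given as a description. A different measure, both p38-MAPKi libraries below both controls at 7 h, held for 38.7% of all genes tested.

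**Figure D1:**
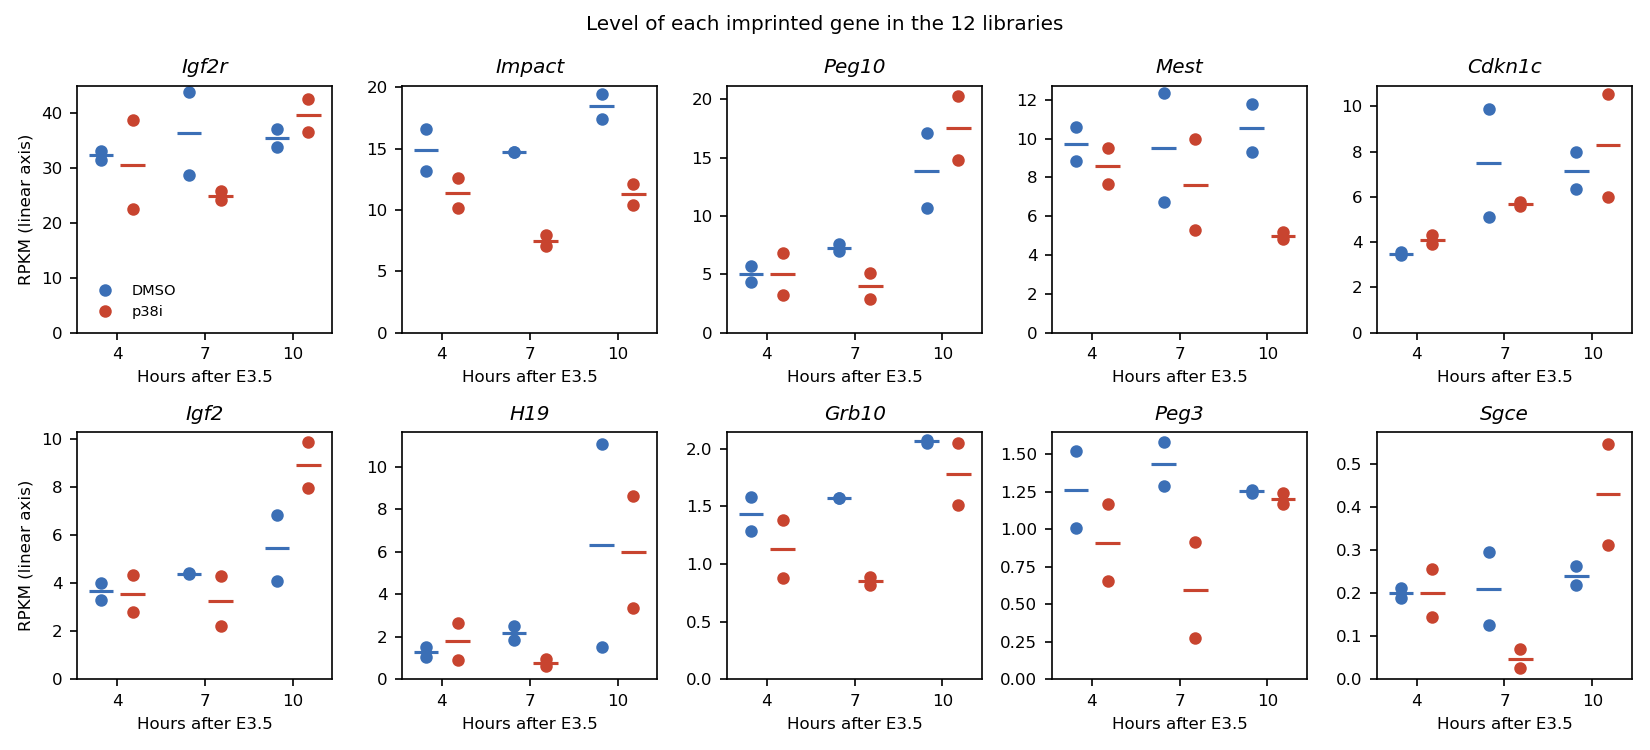
Level in RPKM (linear axis from 0) of the 10 genes, ordered by mean level, at 4, 7 and 10 h after E3.5, in control (blue) and p38-MAPKi (red) blastocysts. Points are single libraries and lines the mean of 2. Impact lies lower in p38-MAPKi at every time, and Peg10 is highest at 10 h in both conditions.

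In control blastocysts, Cdkn1c and Peg10 rose between 4 and 10 h. Each time point was compared with limma for genes that reached 1 RPKM in 2 or more of the 4 libraries, and a gene was called at a Benjamini-Hochberg adjusted p under 0.05. Of the 10 genes, 9 were tested, since Sgce stayed under 1 RPKM in all libraries. Between 4 and 10 h, 2 of the 9 were called, both higher, where 0.471% of the 10825 genes tested were called in either direction. With 2 libraries in a group, an exact permutation test of a single gene cannot give a p under 0.333.

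Peg10 is a retrotransposon-derived gene needed for the placenta (chromosome 6, 4747306 to 4760517, GRCm38, plus strand). Its control values were 5.75 and 4.30 RPKM at 4 h, 7.58 and 6.99 RPKM at 7 h, and 10.6 and 17.1 RPKM at 10 h. No control library of a later time overlapped with those of an earlier time. The rise from 4 to 10 h was 2.71-fold (limma, log2 difference 1.44, standard error 0.22, adjusted p = 0.0150). The steps to 7 h (0.55) and from 7 to 10 h (0.89) were not called (limma, adjusted p = 0.564 and 0.840).

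Cdkn1c encodes p57KIP2, a cyclin-dependent kinase inhibitor that stops cell division (chromosome 7, 143458339 to 143461050, minus strand). In the controls it had 3.44 and 3.54 RPKM at 4 h, 9.87 and 5.10 RPKM at 7 h, and 7.99 and 6.34 RPKM at 10 h. Both later groups lay above the 4 h controls without overlap, and they overlapped with each other. From 4 to 10 h, Cdkn1c rose 2.04-fold (limma, log2 difference 1.03, standard error 0.17, adjusted p = 0.0252). The call was lost without replicate 1 of the 4 h controls (limma, adjusted p = 0.0637) and without replicate 1 of the 10 h controls (0.280). From 4 to 7 h it was also called (limma, log2 difference 1.02, adjusted p = 0.00258), in a comparison that called 0.492% of genes and in which limma used 1 trend of spread for all genes and not each gene's own. Without replicate 1 of the 7 h controls that log2 difference was 0.55 (limma, adjusted p = 0.877), and without replicate 1 or 2 of the 4 h controls the adjusted p was 0.720 and 0.407.

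The other 7 tested genes were not called between 4 and 10 h in the controls. All 9 log2 differences lay above 0, from 0.02 for Peg3 to 1.71 for H19, with a median of 0.53 against 0.14 for all genes tested. The H19 value rested on replicate 2 of the 10 h controls, without which it was 0.28, while without replicate 1 it was 3.14. For 7 of 9 genes both 10 h libraries lay above both 4 h libraries, which was so for 42.3% of all genes tested. With each library centred on its median, the log2 differences of Igf2r, Peg3 and Mest were -0.01, -0.12 and -0.02. With that centring the adjusted p of Peg10 and Cdkn1c were 0.0883 and 0.0829, and in a fit to all 12 libraries both were 0.598 (limma). The summed level of the 10 trophectoderm markers was 1847 to 2009 RPKM in the 4 h controls and 2446 to 2700 RPKM at 10 h, with none of the 9 tested markers called. Most of this sum was Krt18 (909 to 989 and 1286 to 1399 RPKM) and Krt8 (477 to 509 and 647 to 742.5 RPKM). Cdx2 was at 195.5 to 218.8 RPKM at 4 h and 203.7 to 207.6 RPKM at 10 h. The part of these marker levels in the values of Peg10 and Cdkn1c was not tested. Between 7 and 10 h, 0 of 9 genes were called (limma, 2 at an unadjusted p under 0.05, Peg10 and Impact, as for 3.79% of all genes), and 0.0552% of all genes were.

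**Figure D2:**
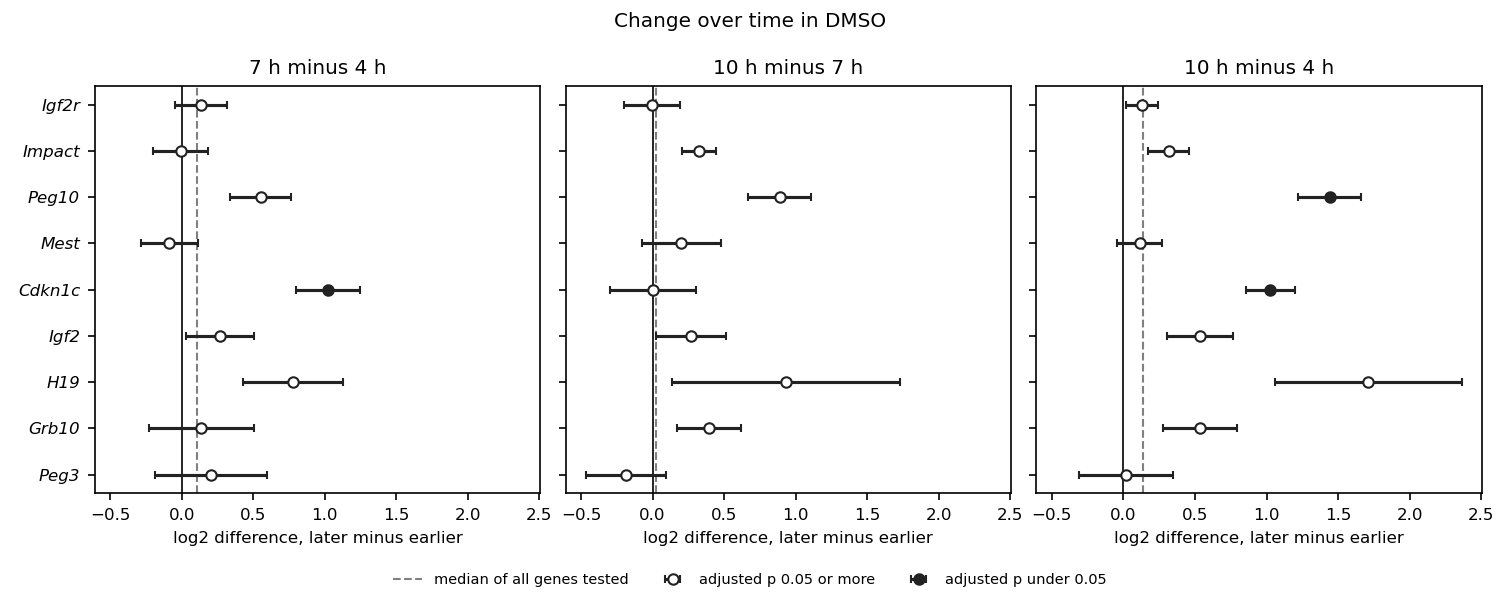
Change over time in control blastocysts for the 9 tested genes, as limma log2 difference (later minus earlier time) with its standard error. Filled points passed an adjusted p of 0.05, and the dashed line marks the median of all genes tested. Peg10 and Cdkn1c pass from 4 to 10 h, and Cdkn1c from 4 to 7 h.

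H19 and Igf2 are neighbours on chromosome 7 (H19, 142575529 to 142578143; Igf2, 142650766 to 142666816; both on the minus strand), with 72623 bases between them, and are known to share enhancers. H19 is a long noncoding RNA and Igf2 a fetal growth factor. H19 had 1.04 and 1.52 RPKM in the 4 h controls, 2.52 and 1.84 RPKM at 7 h, and 1.53 and 11.1 RPKM at 10 h. The 10 h replicates differed 7.25-fold, the widest gap between replicates of any of the 10 genes. Igf2 had 3.31 and 4.01, 4.37 and 4.41, and 4.08 and 6.82 RPKM in the same libraries. Igf2 exceeded H19 in 11 of 12 libraries, and the exception was replicate 2 of the 10 h controls. Neither gene was called between control times (limma, adjusted p from 0.265 to 0.9997). The antisense gene Igf2os overlaps Igf2 with a mean level of 1.44 RPKM, and since the strand used in counting is not stated, reads of the pair cannot be told apart.

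After p38-MAPKi, Impact was lower at 7 and 10 h and Mest at 10 h, and none of the 9 tested genes was called higher. At 4 h 0 of 9 were called (limma, 0 also at an unadjusted p under 0.05, which 9.42% of genes had), where 0.909% of 10781 genes were. At 7 h 1 of 9 was called against 2.13% of 10940 genes, and at 10 h 2 of 9 against 0.803% of 10959 genes. At an unadjusted p under 0.05 there were 4 of 9 at 7 h, against 28.4% of all genes, and 3 of 9 at 10 h, against 19.8%. H19 is among the 4 and passed the level filter at 7 h only through the controls.

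Impact encodes an inhibitor of GCN2, the kinase that lowers translation when amino acids are scarce (chromosome 18, 12972252 to 12992948, plus strand). Control libraries had 16.6 and 13.2 RPKM at 4 h, 14.7 and 14.7 RPKM at 7 h, and 19.5 and 17.4 RPKM at 10 h. With p38-MAPKi the values were 12.6 and 10.1, 7.96 and 7.02, and 12.1 and 10.4 RPKM. Both p38-MAPKi libraries lay below both controls at all 3 times, as for 4.00% of 11575 genes, and Impact was the one gene of the 10 of which this was true.

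Impact fell by 49.3% at 7 h (limma, log2 difference -0.98, standard error 0.19, adjusted p = 0.0461) and fell by 39.0% at 10 h (-0.71, standard error 0.11, adjusted p = 0.0482). At 4 h the log2 difference was -0.39 (limma, standard error 0.22, adjusted p = 0.589). In the fit of 1 effect common to the 3 times it was -0.69 (limma, 12 libraries, standard error 0.11, adjusted p = 0.0119), and this call held in 20 of 20 alternatives, with adjusted p from 0.00812 to 0.0468. That fit called 1 of 9 genes against 2.67% of all 11590. The 7 h call was lost without replicate 1 or 2 of the controls (limma, adjusted p = 0.0968 and 0.351) and held without the shallow p38-MAPKi replicate 1 (log2 difference -1.07, adjusted p = 0.0118). The 10 h call was lost without control replicate 1 (limma, adjusted p = 0.0627), without p38-MAPKi replicate 2 (0.0570) and in a fit to all 12 libraries (0.326).

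Mest encodes an endoplasmic reticulum protein of the hydrolase fold family and is used as a marker of embryonic mesoderm (chromosome 6, 30723547 to 30748465, plus strand). RefSeq gives 3 start windows for it, 2 of them 3 bases apart. A pair of distinct windows is shown because the single value of Mest in the table sums transcripts from its starts, which cannot be told apart here. Each covers 250 bases before to 50 after a start on the plus strand of GRCm38.p6, with CG dinucleotides, the sites of DNA methylation, in capitals, at chr6:30733256-30733555 and chr6:30737800-30738099 in that order.
Mest, first start: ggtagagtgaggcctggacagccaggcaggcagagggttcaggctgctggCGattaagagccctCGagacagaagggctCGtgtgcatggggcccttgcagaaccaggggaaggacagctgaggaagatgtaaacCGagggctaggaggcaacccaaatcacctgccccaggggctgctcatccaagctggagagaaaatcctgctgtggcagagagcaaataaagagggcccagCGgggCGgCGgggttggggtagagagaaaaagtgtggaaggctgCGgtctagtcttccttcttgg
Mest, second start: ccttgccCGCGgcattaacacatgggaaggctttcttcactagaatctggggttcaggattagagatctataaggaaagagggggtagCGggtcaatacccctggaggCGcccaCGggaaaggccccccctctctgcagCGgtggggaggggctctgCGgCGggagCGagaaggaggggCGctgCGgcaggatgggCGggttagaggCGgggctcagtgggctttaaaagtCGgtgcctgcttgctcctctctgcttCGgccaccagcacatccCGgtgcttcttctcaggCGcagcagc
The first window holds 8 CG and the second 17, and 48.6% and 31.4% of 32851 RefSeq windows hold at least as many, with a median of 7. No methylation was measured.

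Mest had 10.6 and 8.84 RPKM in the 4 h controls, 12.3 and 6.74 RPKM at 7 h, and 11.8 and 9.33 RPKM at 10 h. With p38-MAPKi it had 9.53 and 7.63, 9.97 and 5.26, and 4.82 and 5.16 RPKM. The groups overlapped at 4 and 7 h and lay apart at 10 h, where the p38-MAPKi replicates differed 1.07-fold. Mest fell by 52.4% at 10 h (limma, log2 difference -1.07, standard error 0.13, adjusted p = 0.0398), and this call held without each of the 4 libraries. In a fit to all 12 libraries the adjusted p of the same difference was 0.588 (limma). The log2 difference was -0.18 at 4 h and -0.33 at 7 h (limma, adjusted p = 0.838 and 0.553). The difference between the 10 h and 4 h effects was -0.89 (limma interaction, unadjusted p = 0.00471, adjusted p = 0.445) and was not called. Copg2 overlaps the end of Mest, so that reads there cannot be assigned to one of the pair.

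Mest and H19 also host microRNAs, and the mature forms are shown with the seed, bases 2 to 8, in capitals, since Mest is the host whose mRNA changed at 10 h and H19 the host with the widest spread. The 4 sequences (RefSeq, GRCm38.p6) have 4 different seeds. Small RNA was not measured, so the values above are of the host transcripts alone.
mmu-miR-335-5p, in Mest: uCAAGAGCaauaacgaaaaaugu
mmu-miR-335-3p, in Mest: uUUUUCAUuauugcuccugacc
mmu-miR-675-5p, in H19: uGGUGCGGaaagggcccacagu
mmu-miR-675-3p, in H19: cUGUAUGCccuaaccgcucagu

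At 7 h the log2 differences of all 9 tested genes lay below 0, as those of 59.9% of all genes tested did. They ran from -1.52 for H19 to -0.32 for Cdkn1c, with a median of -0.88, which is the value of Grb10. H19, Grb10 and Peg3 had both p38-MAPKi libraries under 1 RPKM and passed the filter only through the controls. This fixed their direction and lack of overlap in advance, so the median of -0.88 is not set against that of all genes. The other tested genes were at -0.98 (Impact), -0.92 (Peg10), -0.51 (Igf2), -0.51 (Igf2r), -0.33 (Mest) and -0.32 (Cdkn1c), where the median of all genes was -0.14. For 7 of 9 genes both p38-MAPKi libraries lay below both controls, which was so for 38.7% of all genes. H19, Grb10 and Peg3 are among the 7. At 7 h the difference also moved with transcript length. Its median was 0.28 in the quartile of shortest genes, up to 2336 bases, and -0.45 in that of the longest, from 6114 bases, which holds Peg3 (13324 bases), Igf2r (9438), Grb10 (9089) and Peg10 (6667). With the trend on length removed, all 9 differences stayed below 0 and 0 were called, and Igf2r went from -0.51 to -0.06, Peg10 from -0.92 to -0.58, Grb10 from -0.88 to -0.44 and Peg3 from -1.51 to -0.95. Impact (3432 bases) was at -0.88 and H19 (2372 bases) at -1.55 after that removal (limma, adjusted p = 0.104 and 0.143).

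**Figure D3:**
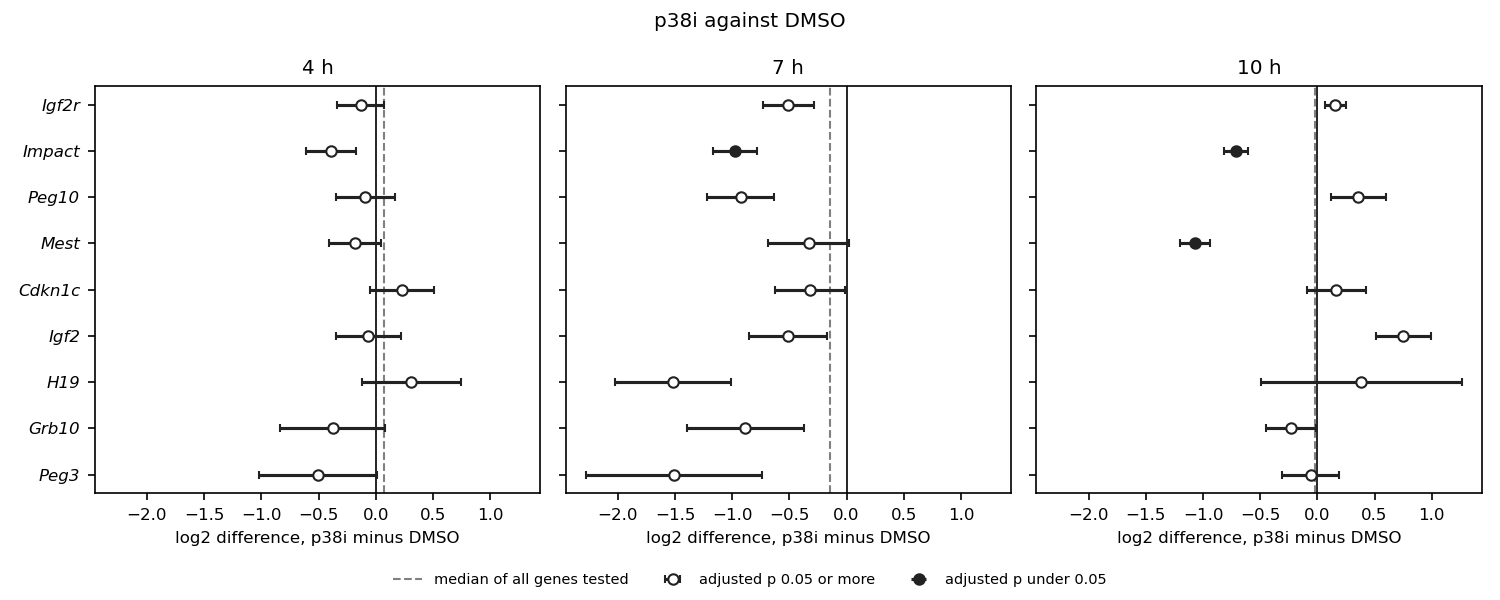
Difference between p38-MAPKi and control blastocysts for the 9 tested genes at 4, 7 and 10 h, as limma log2 difference with its standard error. Filled points passed an adjusted p of 0.05, and the dashed line marks the median of all genes tested. Impact passes at 7 and 10 h and Mest at 10 h, and all 9 points lie below 0 at 7 h. At 7 h H19, Grb10 and Peg3 passed the level filter only through the controls.

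Among the genes known as maternally expressed, H19 had 0.938 and 0.604 RPKM with p38-MAPKi at 7 h, below both controls (limma, log2 difference -1.52, standard error 0.51, adjusted p = 0.100). Without the shallow replicate 1 the H19 difference was -1.83 and without replicate 2 it was -1.20. Both p38-MAPKi values lay under 1 RPKM, so H19 passed the filter at 7 h only through the controls. It could not be tested without either control. At 4 and 10 h its groups overlapped, with 2.65 and 0.917 RPKM and 3.35 and 8.60 RPKM after p38-MAPKi. Grb10 encodes an adaptor that dampens insulin and IGF signalling (chromosome 11, 11930508 to 12038683, minus strand). It had 1.57 and 1.57 RPKM in the 7 h controls and 0.891 and 0.814 RPKM with p38-MAPKi, without overlap (limma, log2 difference -0.88, standard error 0.51, adjusted p = 0.281). Like H19, Grb10 passed the filter at 7 h only through the controls. Igf2r (chromosome 17, 12682406 to 12769664, minus strand) ranged from 22.4 to 43.8 RPKM and had log2 differences of -0.13, -0.51 and 0.16 at 4, 7 and 10 h (limma, adjusted p = 0.877, 0.172 and 0.404). Cdkn1c had 4.31 and 3.90, 5.58 and 5.77, and 6.01 and 10.6 RPKM with p38-MAPKi, with log2 differences of 0.23, -0.32 and 0.16, none called (limma, adjusted p from 0.503 to 0.835).

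Among the paternally expressed genes, Peg10 had 5.10 and 2.89 RPKM with p38-MAPKi at 7 h, below both controls (limma, log2 difference -0.92, standard error 0.29, adjusted p = 0.0891). Without the shallow replicate 1 it was -1.33 and passed (limma, adjusted p = 0.00746). At 10 h Peg10 had 14.8 and 20.3 RPKM, overlapping with the controls. Peg3, a zinc finger protein of placenta and brain (chromosome 7, 6703892 to 6730431, minus strand), had 0.274 and 0.913 RPKM with p38-MAPKi at 7 h against 1.29 and 1.58 RPKM in the controls (limma, log2 difference -1.51, standard error 0.77, adjusted p = 0.230). The lowest of these values came from the shallow replicate 1, and without it the difference was -0.64, against -2.38 without replicate 2. Peg3 also passed the filter at 7 h only through the controls and could not be tested without either of them. Primitive endoderm markers summed to 220 to 228 RPKM in the 7 h controls and 151 to 156 RPKM with p38-MAPKi. Most of this sum was Gata6 (101 to 129 and 80.9 to 85.0 RPKM) and Dab2 (47.3 to 57.5 and 24.0 to 28.3 RPKM). Sox17, Serpinh1 and Lama1, among others, overlapped between the groups. Of 8 tested markers 1 was called (Dab2, lower). The median log2 difference at 7 h was -0.44 for these markers, -0.39 for trophectoderm and -0.31 for epiblast markers. The part of these marker levels in the values of the imprinted genes at 7 h was not tested.

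Igf2 had 4.34 and 2.79 RPKM with p38-MAPKi at 4 h, 2.21 and 4.29 RPKM at 7 h, and 7.96 and 9.90 RPKM at 10 h. Both p38-MAPKi libraries lay below both controls at 7 h, as for 38.7% of all genes tested, and above both at 10 h, as for 22.6%. The log2 differences were -0.51 at 7 h and 0.75 at 10 h (limma, standard errors 0.34 and 0.24, adjusted p = 0.340 and 0.160). Without the shallow p38-MAPKi replicate 1 the 7 h difference was -0.03 (limma, adjusted p = 0.959), and without replicate 2 it was -0.99 and passed (0.0217). At 10 h it was 0.38 without control replicate 1 (limma, adjusted p = 0.301) and 1.12 without control replicate 2 (0.0340). The difference between the 10 h and 7 h effects was tested as an interaction in 8 libraries. It was 1.26 for Igf2, 1.28 for Peg10 and 0.67 for Igf2r, with unadjusted p of 0.0285, 0.0182 and 0.0367 (limma) and adjusted p of 0.148, 0.121 and 0.163. For Igf2 it was 0.78 without the shallow library (limma, adjusted p = 0.223) and 1.74 without the other p38-MAPKi library of 7 h (0.0199). None of the 9 genes was called in this or the 2 other interactions, and of all genes 0.00877% were called between 10 and 7 h, 0.00884% between 7 and 4 h and 0% between 10 and 4 h. These comparisons share the 7 h or other libraries with those at single times.

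Sgce encodes a sarcoglycan (chromosome 6, 4674350 to 4747207, minus strand), and its start lies 99 bases from that of Peg10, which is read in the opposite direction. Its control values were 0.187 and 0.212 RPKM at 4 h, 0.295 and 0.125 RPKM at 7 h, and 0.262 and 0.219 RPKM at 10 h. With p38-MAPKi it had 0.256 and 0.144, 0.0251 and 0.0703, and 0.312 and 0.547 RPKM, the 7 h values resting on 3 and 13 reads. Both p38-MAPKi libraries lay below both controls at 7 h and above both at 10 h, as for Igf2. With no filter on level, its log2 differences were -0.05, -2.19 and 0.79 at 4, 7 and 10 h (limma, adjusted p = 0.978, 0.353 and 0.597). Peg10 exceeded Sgce in all 12 libraries.

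The profiles most like those of the 4 genes called in any comparison were sought by Pearson's r of log2 values over the 12 libraries, among 9388 genes with at least 1 RPKM in all of them. For Peg10 these were Snx9 (r = 0.963) and Sugp2 (0.955), and for Impact Trim44 (0.950) and Rad21 (0.935). For Cdkn1c they were Cldn4 (0.926) and Tspyl1 (0.903), and for Mest Rbm4 (0.883) and Gskip (0.88). These are the highest of many values and are given as a description. The 12 points fall into 6 groups and share the depth and quality of their libraries.

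Other imprinted genes were divided by the parental copy that is expressed. Of 27 other maternally expressed genes, 11 to 13 were tested in a comparison with p38-MAPKi, and 1 was called, at 10 h, where 0.803% of all genes were. This was Cd81, a tetraspanin, with 8.06 and 6.62 RPKM in the 10 h controls and 14.2 and 12.5 RPKM with p38-MAPKi. Cd81 was higher at 10 h (limma, log2 difference 0.86, standard error 0.13, adjusted p = 0.0478), but not without control replicate 2 (0.0519) or p38-MAPKi replicate 1 (0.0748). It was also higher in the controls at 7 h than at 4 h (limma, log2 difference 0.95, adjusted p = 0.00292), a call that ended without replicate 1 of the 4 h controls (0.476), replicate 2 of the 4 h controls (0.309) or replicate 1 of the 7 h controls (0.576). The most abundant of this list were Nap1l4 (62.5 RPKM), Tssc4 (22.6 RPKM) and Gnas (16.3 RPKM), none of them called.

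Of 31 other paternally expressed genes, 30 were in the table and 12 or 13 were tested at a single time, with 0 called at 4, 7 and 10 h (limma, 0, 2 and 5 at an unadjusted p under 0.05). At these times 0.909%, 2.13% and 0.803% of all genes were called, and 9.42%, 28.4% and 19.8% had such an unadjusted p. Snurf (142.8 RPKM) and Snrpn (77.3 RPKM), which share a transcription unit so that their reads may be split, and the amino acid transporter Slc38a4 (28.9 RPKM) were the most abundant. At 7 h 10 of 12 tested paternally expressed genes and 8 of 11 maternally expressed ones lay below 0, against 59.9% of all genes. The medians were -0.28 and -0.25, against -0.14 for all genes. The median of -0.88 for the 9 genes above includes H19, Grb10 and Peg3, which passed the filter only through the controls, and is not set against these.

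A further list held factors that maintain imprints, along with enzymes that add or oxidise DNA methylation, such as Dnmt3b and Tet2. Of its 21 genes 20 were tested, and Nlrp2 (mean 0.021 RPKM) was not. Dppa3, which protects methylation of the maternal genome in the zygote, was the most abundant (1232 RPKM), followed by Trim28 (206.7 RPKM) and Mbd3 (75.4 RPKM). At 7 h 2 of 20 were called, both lower, against 2.13% of all genes. Dnmt3b, a de novo DNA methyltransferase, had 31.4 and 31.9 RPKM in the controls and 12.02 and 13.1 RPKM with p38-MAPKi (limma, log2 difference -1.33, standard error 0.17, adjusted p = 0.0379). Tet2, which oxidises methylated cytosine, had 23.2 and 28.3 RPKM in the controls and 11.2 and 11.2 RPKM with p38-MAPKi (limma, log2 difference -1.20, standard error 0.19, adjusted p = 0.0456). Both calls ended without control replicate 2 (limma, adjusted p = 0.222 for Dnmt3b and 0.303 for Tet2) and with the length trend removed, where Tet2 was at -0.57. Of the 20, 17 lay below 0 at 7 h, as did 59.9% of all genes, with a median of -0.58 against -0.14 for all genes. Dppa3 lay above 0, with 1164 and 955 RPKM in the controls and 2284 and 1803 RPKM with p38-MAPKi. It was not called (limma, log2 difference 0.94, standard error 0.23, adjusted p = 0.0559). Mbd3 also lay above 0 (limma, log2 difference 0.25, adjusted p = 0.414). At 10 h 0 were called, with a median of -0.08 (limma, 2 at an unadjusted p under 0.05, which 19.8% of all genes had).

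**Figure D4:**
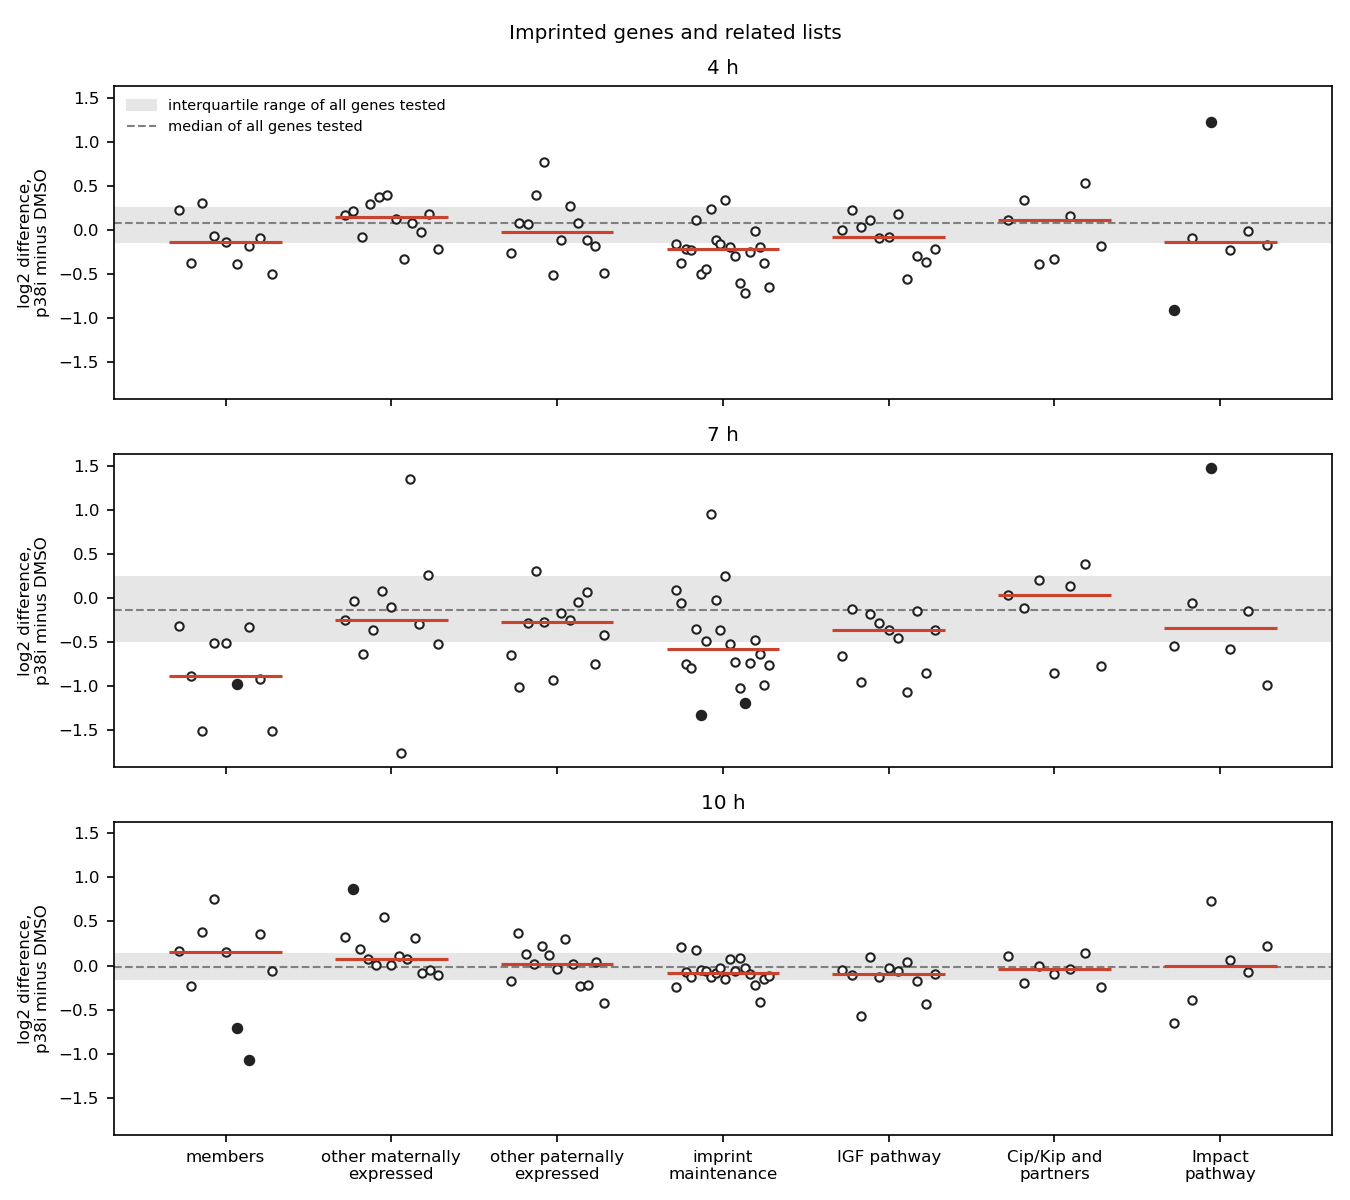
Log2 difference between p38-MAPKi and control blastocysts at 4, 7 and 10 h for the imprinted genes and 6 related lists. Each point is 1 tested gene, filled where the adjusted p was under 0.05, red lines are list medians, and the grey band and dashed line give the interquartile range and the median of all genes tested. At 7 h the median of the 9 imprinted genes is -0.88, which is the value of Grb10. Grb10, H19 and Peg3 passed the level filter at 7 h only through the controls, so this median is not set against those of the lists.

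The surroundings of Igf2, Cdkn1c and Impact were read in 3 further lists. Of 19 genes of the IGF pathway, 11 were tested and 0 were called in any comparison (limma, 0, 2 and 1 at an unadjusted p under 0.05 at 4, 7 and 10 h). Such a p was found for 9.42%, 28.4% and 19.8% of all genes, and 0.909%, 2.13% and 0.803% were called. The signalling receptor Igf1r was at 0.106 RPKM on average and Insr at 1.51 RPKM, while the mRNA-binding proteins Igf2bp2 and Igf2bp1 were at 40.6 and 22.2 RPKM and the kinase Akt1 at 31.0 RPKM. Of 10 genes around Cdkn1c, 7 were tested, and 1 was called, in the effect common to the 3 times, where 2.67% of all genes were. Its relative Cdkn1a, which encodes p21, was at 87.6 RPKM and was higher in the effect common to the 3 times (limma, log2 difference 0.35, standard error 0.08, adjusted p = 0.0417), a call lost when any of 10 of the 12 libraries was left out (limma, adjusted p from 0.0514 to 0.106 in those 10). The G1 kinase Cdk4 and the cyclin Ccne1 were at 85.5 and 24.0 RPKM and were not called.

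Around Impact, all 6 genes found in the table were tested. At 4 h 1 was called higher and 1 lower, at 7 h 1 higher and at 10 h 0. Of all genes, 0.909%, 2.13% and 0.803% were called at these times. Ddit3, a transcription factor of the stress response downstream of GCN2 and related kinases, had 5.29 and 7.42 RPKM in the 4 h controls and 13.2 and 16.2 RPKM with p38-MAPKi. At 7 h it had 8.18 and 6.48 RPKM against 21.6 and 18.9 RPKM. Ddit3 was higher at 4 h (limma, log2 difference 1.23, adjusted p = 4.52e-05), at 7 h (1.47, adjusted p = 0.0397) and in the common effect (1.14, adjusted p = 0.00419), the last in 20 of 20 alternatives. The single-time calls ended without replicate 1 of the 4 h controls (limma, adjusted p = 0.369) and without replicate 2 of the 7 h controls (0.253). They were also lost without the variance trend (limma, adjusted p = 0.123 at 4 h and 0.158 at 7 h), with median centring (0.295 and 0.0694), with no filter (0.705 and 0.0716) and with the length trend removed (0.170 and 0.103), and the 4 h call in 1 fit to 12 libraries (0.0597). At 10 h its log2 difference was 0.73 (limma, adjusted p = 0.0561). Asns, the asparagine synthetase that the same pathway induces, was lower at 4 h, with 10.5 and 15.4 RPKM in the controls and 7.74 and 5.94 RPKM with p38-MAPKi (limma, log2 difference -0.91, adjusted p = 0.0123), a call that ended without control replicate 1 (0.130), control replicate 2 (0.798) or p38-MAPKi replicate 2 (0.210). Atf4, the factor between GCN2 and these targets, was at 105.2 RPKM and was not called (limma, adjusted p = 0.0931 at 10 h). Eif2s1, of the same list, was at 34.7 RPKM and was not called.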

How the data were processed

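Whole-blastocyst poly(A) mRNA was sequenced as 50-base single-end reads from a directional library kit. According to the submitters' notes and the methods, the authors trimmed the reads with Trim Galore 0.4.1, mapped them to GRCm38 with HISAT2 2.0.5, and deposited log2 RPKM values per gene from SeqMonk. The strand option and the handling of isoforms and of reads that map to several places are not given in the sources used here. A gene without a read is stored as 0.9 of a read, which gave the depth of each library. With GENCODE lengths, or a search over lengths (H19, Igf2r and Impact), values within 0.02 of a whole read were recovered for 11590 of 11590 tested genes (100%).

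The deposited log2 values were compared with limma 3.58.1 (lmFit, eBayes with a trend) in R 4.3.3, for genes reaching 1 RPKM in 2 or more libraries of the comparison, with Benjamini-Hochberg adjustment over all genes tested and a threshold of 0.05. Scripts were tested on simulated data. For 4 h p38-MAPKi and for the 7 against 4 h controls, limma estimated infinite prior degrees of freedom, so a gene's own spread did not count. The same held in some alternatives, among them the replicate block for 10 against 4 h controls. Promoters and microRNAs are from RefSeq: 5 of the 10 genes had a promoter window. Alternatives were limma without the variance trend, median centring, no level filter, at least 10 RPKM, log2(RPKM + 1), 1 fit to 12 libraries, a replicate block, a loess correction for transcript length (span 0.5, degree 1) and leaving out each library. Voom on the recovered reads was added after seeing the data.

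The 10 genes, the 6 lists and the tests were chosen with earlier results of these data known. Named genes are the 10, every list gene called and the 3 most abundant of each list, Ddit3 and Asns being among those called; Igf1r, Insr and the marker genes are named for their role. Replicates of a group are separate pools, and same-numbered pools of different groups are not stated to share embryos or a day.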

Additional observations from a re-analysis of the deposited data

Results flagged for a closer look

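For Igf2 and Sgce every p38-MAPKi library lay below every control library at 7 h and above every control library at 10 h. Of all genes tested, 38.7% lay lower without overlap at 7 h and 22.6% higher at 10 h. The share with both was not counted. For Igf2 the p38-MAPKi effect at 10 h exceeded that at 7 h by 1.26 on the log2 scale (limma interaction, 8 libraries, unadjusted p = 0.0285, adjusted p = 0.148). It was 0.78 without the shallow replicate 1 of p38-MAPKi at 7 h, where the 7 h effect was -0.03, and 0.78 to 1.74 when any 1 of the 8 libraries was left out. For Sgce the difference was 2.98 on the same scale, and it rests on 3 and 13 reads in the 7 h p38-MAPKi libraries. Sgce stayed under the level filter, so this difference was not tested among the reported comparisons, and without the filter it had an unadjusted p of 0.0321 and an adjusted p of 0.237 (limma).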

How the results depend on the processing

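Of 641 alternative values for 49 results on single imprinted genes, 567 kept direction and call, 36 kept direction and lost the call, 16 kept direction and gained one, and 22, all of uncalled differences, changed sign. At 7 h of p38-MAPKi the number of the 9 genes called was 1; it was 0 without the variance trend, with median centring, with no filter and with the length trend removed, 2 with the replicate block and 3 with voom. At 10 h it was 2, and it was 0 without the trend, with no filter and in 1 fit to 12 libraries, 1 at 10 RPKM or more and 3 with the replicate block. For 7 against 4 h controls it was 1, and 0 without the trend, with median centring, no filter, at least 10 RPKM, 12 libraries, the replicate block, the length trend removed or voom. For 10 against 4 h controls it was 2, and 0 without the trend, with median centring, no filter, 12 libraries or the length trend removed, 1 at 10 RPKM or more, 3 with the replicate block and 4 with voom. The causes were not tested, beyond that at least 10 RPKM leaves fewer genes. The 8 calls of list genes other than Ddit3 in the common effect were all lost without the trend (limma, adjusted p from 0.0779 to 0.362) and with no filter (0.0600 to 0.947). Leaving out 1 library gave 0 to 4 genes called at 7 h, 1 to 3 at 10 h, 0 to 1 for 7 against 4 h, 0 to 1 for 10 against 7 h, 1 to 2 for 10 against 4 h and 0 to 2 for the interaction of 10 and 7 h.

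Between 10 and 4 h controls, the log2 difference changed sign under median centring and under length correction, respectively, for Igf2r (-0.0063 and -0.0384), Peg3 (-0.118 and -0.149) and Mest (-0.0244 and -0.0456). Leaving out 1 library took the 4 h differences from -0.45 to 1.08 for H19, -0.39 to 0.25 for Igf2, -0.53 to 0.26 for Igf2r and -0.64 to 0.46 for Peg10. It took the 7 h differences from -0.99 to -0.03 for Igf2, -0.79 to 0.13 for Mest and -0.80 to 0.15 for Cdkn1c, those at 10 h from -1.05 to 1.81 for H19 and -0.24 to 0.57 for Cdkn1c, and those of the controls between 10 and 4 h from 0.28 to 3.14 for H19, -0.28 to 0.31 for Peg3 and -0.0546 to 0.28 for Mest.

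Over all genes, the calls at 4, 7 and 10 h were 98, 233 and 88 and ranged over the alternatives that keep all libraries from 0 to 115, 0 to 2586 and 0 to 523, and for 10 against 4 h controls, 51, from 0 to 536. Median centring moved the median of all genes at 7 h from -0.14 to 0.05. Deviations of same-numbered libraries in the groups compared correlated at -0.0147 to 0.139 over 2 pairs in a comparison, so the numbers were not taken to pair the samples; among the 9 genes the block added Peg10 at 7 h (limma, adjusted p = 0.0269), Igf2 at 10 h (0.0255) and H19 between 10 and 4 h controls (1.61e-09) and removed Cdkn1c between 7 and 4 h controls, and it ended the calls of Cd81 between those controls (0.534) and of Cdkn1a in the common effect (0.0615). The block fit of 10 against 4 h controls had infinite prior degrees of freedom. The spread of H19 itself, 7.25-fold between its 10 h controls, did not count there. Grb10 lay at 0.814 to 2.08 RPKM and Peg3 at 0.274 to 1.58 RPKM, both under 1 RPKM with p38-MAPKi at 7 h. With 2 libraries in a group, differences of the size of their standard errors could not be resolved.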
